A study of Mus musculus with 2 samples.

Results

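Splicing genes whose human counterparts are mutated in syndromes of the face were followed in total RNA from the facial prominences of mouse embryos. The genes were Eftud2, Sf3b4, Sf3b2, Snrpb, Txnl4a, Eif4a3, Puf60 and Rbm10, which are 8 of the 43346 annotated genes in the files. They were chosen by name and not by a rule on their values, though with earlier results of these data known. The prominences are the swellings of neural crest mesenchyme and ectoderm that build the upper face and jaws. The tissue came from strain B6NCrl at 11.5 days of development, in 1 group of 2 libraries. Library 1 pooled the prominences of 109 embryos of mixed sex and library 2 those of 88, and for each, 10 ng of RNA over 200 nt in length was used, together with spike-in RNAs. Per the labels the embryos were healthy, and no group was mutant or treated, so the data give the levels and transcript forms of these genes and no effect of their loss. Because the embryos were pooled and the prominences were not separated, differences between embryos or between prominences cannot be seen.

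The spliceosome removes introns from pre-mRNA, and it is built from small nuclear ribonucleoproteins (snRNPs) that join and leave in order. The U1 snRNP finds the start of an intron, the U2 snRNP its branch point, and the tri-snRNP with U5 at its heart brings the machine to its active state. Although every cell needs these proteins, loss of a copy or partial loss of function of several of them in humans gives malformations of the jaw, ear, palate or limbs. EFTUD2 is mutated in mandibulofacial dysostosis with microcephaly, SF3B4 in Nager syndrome, SF3B2 in craniofacial microsomia, SNRPB in cerebrocostomandibular syndrome, TXNL4A in Burn-McKeown syndrome, EIF4A3 in Richieri-Costa-Pereira syndrome, PUF60 in Verheij syndrome and RBM10 in TARP syndrome.

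The libraries held 30849058 and 31600302 expected counts, which are reads as the authors' quantification assigned them, and 67714 and 66020 of these fell on the 8 genes. Levels are in TPM, transcripts scaled by length to a fixed total per library, and mean ± SD refers to the 2 libraries (n = 2). Spike-ins took 15.4% and 15.8% of TPM. All 8 listed markers of facial mesenchyme, among them Msx1 and Alx1, reached 1 TPM in both libraries. The same held for all markers listed for surface epithelium, red cells, endothelium, neurons and skeletal muscle. Since 58.5% of protein-coding genes reached this level, detection alone does not show which cell types the samples hold. Positions are on GRCm38 (mm10), 1-based, and transcript names and types are those of GENCODE M21, while the authors quantified the models of GENCODE M4.

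All 8 genes were transcribed at 1 TPM or more in both libraries, where 58.5% of the 21474 protein-coding genes were. Their median was 212 TPM, against 18.0 over the 12572 protein-coding genes detected. The highest gene exceeded the lowest 12.4 ± 0.901 times. In order of level they were Snrpb, Puf60, Eif4a3, Sf3b2, Eftud2, Sf3b4, Txnl4a and Rbm10. Puf60 and Eif4a3 did not differ beyond their spread, since the values of their libraries overlap. The values of all other neighbours in the order did not overlap between libraries, although 2 values per gene give little information on the spread. Reads could be assigned to these genes with little doubt, with a posterior SD, the quantifier's own doubt about the assignment, of at most 0.705% of the count, highest for Txnl4a.

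**Figure D1:**
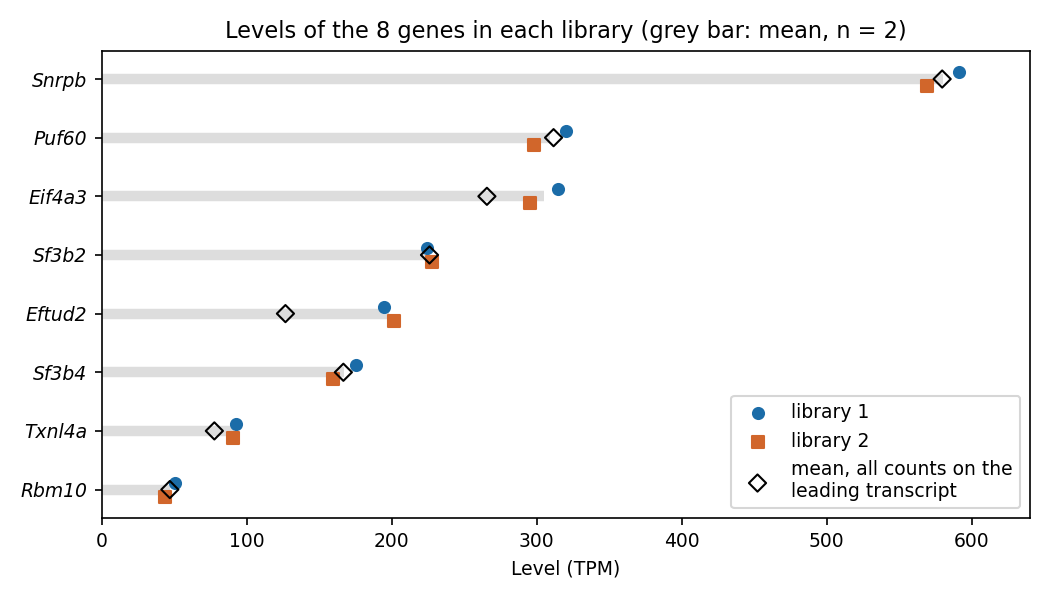
Level in TPM of the 8 genes in library 1 (circles) and library 2 (squares), with the mean as a grey bar and, as open diamonds, the mean when all counts of a gene are placed on its leading transcript. Snrpb stood alone near 580.2 TPM and Rbm10 lowest near 47.1, and the diamond of Eftud2 fell from 198 to 127.

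Snrpb encodes SmB/B′, a subunit of the Sm ring that clasps the RNA of the U1, U2, U4 and U5 snRNPs. It lies on chromosome 2, 130171414 to 130179403, minus strand (ENSMUSG00000027404.11). It stood at 591 TPM in library 1 and 569 in library 2, and held 12865 and 12598 counts. This placed it 179th among protein-coding genes, above 98.6% of those detected. The 8 genes listed for the Sm core ran from 60.5 to 707 TPM with a median of 310.04. Snrpg (707 ± 24.2) and Snrpe (621 ± 15.5) stood above Snrpb, and Snrpn (72.6 ± 3.51), the imprinted paralog whose protein SmN can take the place of SmB/B′, and Snrpd3 (60.5 ± 2.09) were lowest. Snrpb exceeded its paralog Snrpn 8.0 ± 0.17 times.

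Nearly all of Snrpb was its coding form. The coding transcript Snrpb-201 (1161 nt, 7 exons) took 98.5% of the gene's TPM in library 1 and 98.6% in library 2. The other 3 models are noncoding, and together they took 1.52% and 1.36%. They include Snrpb-203, typed for nonsense-mediated decay, the pathway that destroys messages with an early stop codon, which took 0.440% and 0.380%. Snrpb-203 differs from the coding form by an additional exon of 124 nt at chromosome 2, 130176629 to 130176752. SmB/B′ is known to promote inclusion of a highly conserved alternative exon in its own message, and mutations in that exon are a known cause of cerebrocostomandibular syndrome. The length of the exon leaves a remainder of 1 after division by 3, and the frame annotated for Snrpb-203 ends inside it, after 70 codons. The stretch from 30 nt before the exon to that stop codon is shown because it carries the early stop, with the stop in capitals:
Snrpb-203, last 30 nt of exon 2 and start of exon 3 (chr2:130176629-130176752, minus strand): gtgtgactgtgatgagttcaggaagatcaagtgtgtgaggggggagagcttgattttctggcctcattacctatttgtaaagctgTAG
The stop follows 55 bases of the exon, with 66 bases of the exon and 5 exon junctions after it. The retained-intron model Snrpb-202 holds nearly the same stretch (122 of the 124 nt), so the 2 models were also counted together. They took 1.01% of the TPM of the models that span the exon in library 1 and 0.867% in library 2, or 166 and 139 counts. Only 55.5 and 46.4 counts were assigned to Snrpb-203 itself, with posterior SDs of 14.7 and 14.5, so the share of the decay form was close to the limit of what these reads resolve.

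Decay-typed transcripts were otherwise annotated in the files for Eftud2 alone among the 8. Its models of that type took 7.07% and 6.25% of TPM. Over the 1781 protein-coding genes with a mean of 10 TPM and a model of this type besides a coding one, the median share was 3.23%, and 42.3% of them reached 5%. Snrpb stood below that median in both libraries and Eftud2 above it. By counts the decay-typed models of Eftud2 held 1.55% and 1.45%, and the count of Eftud2-205, which held all of it, had a posterior SD of 25.5% and 25.6%.

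Sf3b2 and Sf3b4 encode subunits of SF3b, the part of the U2 snRNP that grips the branch point. Sf3b2 lies on chromosome 19, 5273932 to 5295455, minus strand, and held the most counts of the 8 genes, 14409 in library 1 and 14883 in library 2. Its level was 224 TPM in library 1 and 228 in library 2, and it was the member with the second smallest SD (2.32). Sf3b4, whose protein binds Sf3b2 and pre-mRNA near the branch point, lies on chromosome 3, 96172332 to 96177564, plus strand. It stood lower, at 175 TPM in library 1 and 159 in library 2. Sf3b2 exceeded Sf3b4 1.35 ± 0.106 times, with library 2 showing the larger gap.

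The U2 list held 12 genes at a median of 169.6 TPM, all detected. Sf3b1, the large scaffold of SF3b that holds the branch point, led with 280.3 ± 16.2, followed by Sf3b2, while Sf3a1 (63.0 ± 1.14), a subunit of the neighbouring SF3a, and Sf3b5 (31.9 ± 0.962), a small subunit of SF3b, were lowest. Sf3b2 and Sf3b4 thus stood 2nd and 7th of 12 in the list. With all counts of each gene on the transcript that held most of them, Sf3b1 fell to 173 ± 8.44 TPM and Sf3b2 was the highest.

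Both SF3b genes appeared almost wholly coding, but for Sf3b2 the annotation left no alternative. The files hold a single transcript for Sf3b2, against 8 in GENCODE M21, so its coding share of 100% is fixed by the gene models. For Sf3b4 the files hold a retained-intron model of 437 nt, Sf3b4-202, which took 0.700% of TPM in library 1 and 0.340% in library 2, from 8.50 and 3.87 counts. At this depth the 2 values cannot be told apart, the ratio of the counts having an interval of 0.110 to 1.86. An antisense gene, Gm17690, shares 85 exonic bases with Sf3b4 and was listed at 1.94 ± 0.0636 TPM.

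Eftud2 and Txnl4a encode proteins of the U5 snRNP. Eftud2 encodes Snu114, the GTPase that controls activation of the spliceosome, and lies on chromosome 11, 102838473 to 102880985, minus strand. Its level was 195 TPM in library 1 and 202 in library 2. Txnl4a encodes Dim1, a small thioredoxin-like protein, and lies on chromosome 18, 80206795 to 80225855, plus strand. It was lower, at 92.2 and 90.6 TPM, and Eftud2 exceeded it 2.17 ± 0.0803 times. Placing all counts of each gene on its leading transcript made this 1.63 ± 0.0848 times. Of 15 genes listed for U5 and the tri-snRNP, all were detected, at a median of 79.3 TPM. Snu13, which binds U4 RNA, led with 262 ± 4.45, then came Eftud2, and Sart1 (22.7 ± 0.523), needed to join U5 to its partners, and the helicase gene Ddx23 (14.4 ± 0.120) were lowest. Prpf8 (77.5 ± 0.0495), the scaffold at the active centre, and Snrnp200 (79.3 ± 1.20), the helicase that unwinds U4 from U6, are known partners of Eftud2 protein in U5, and Eftud2 exceeded them 2.55 ± 0.0638 and 2.5 ± 0.023 times in TPM. With all counts of each gene on its leading transcript these ratios were 1.64 ± 0.0251 and 1.78 ± 0.0677, and Snrnp40 (158 ± 2.47) stood above Eftud2. Txnl4b, the paralog of Txnl4a, stood at 21.5 ± 0.304, which Txnl4a exceeded 4.25 ± 0.114 times, or 3.61 ± 0.296 times with counts on the leading transcripts.

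**Figure D2:**
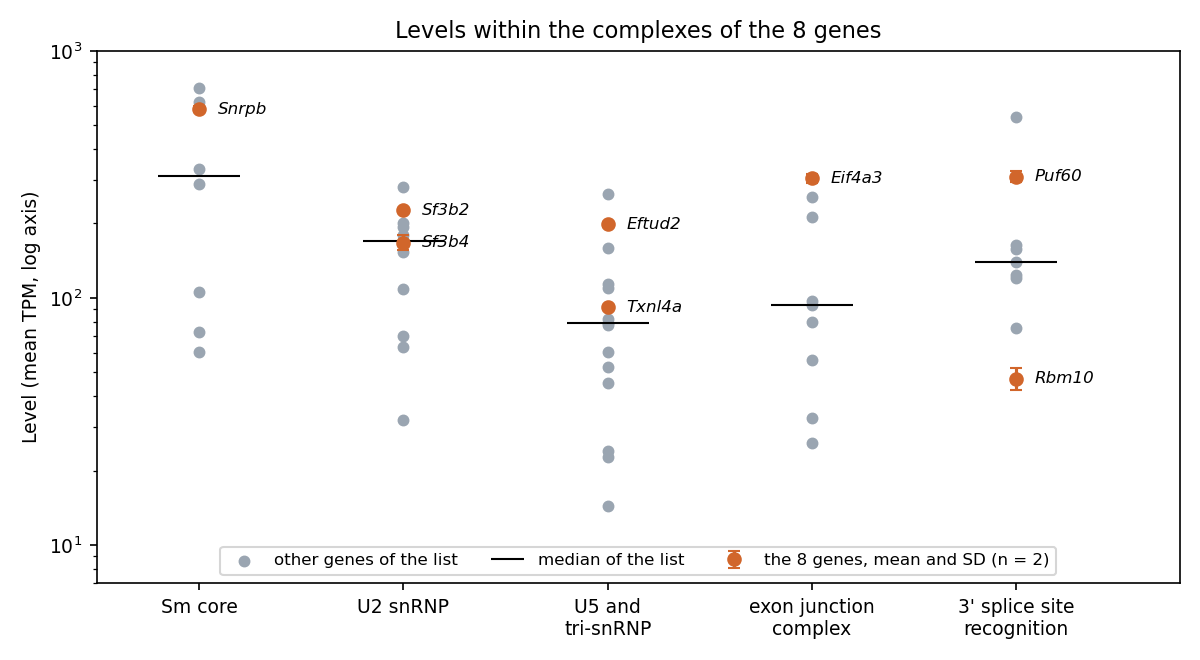
Mean level in TPM (log axis) of the genes of 5 lists, with the 8 genes in orange with their SD (n = 2), other genes in grey and the median of each list as a line. In TPM as deposited Eif4a3 led its list, Rbm10 stood lowest in its own, and Sf3b4 lay near the median of the U2 list at 167 TPM.

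The level of Eftud2 depended on a short transcript. Of 13 models in the files, the full-length coding form Eftud2-202 (3339 nt) held 76.8% of the counts in library 1 and 73.7% in library 2, but 50.5% and 45.8% of the TPM. The other full-length form, Eftud2-201 (3324 nt), held 14.9% and 16.2% of the counts, and 9.86% and 10.1% of the TPM. Eftud2-211, a coding fragment of 397 nt whose annotation lacks a start, took 24.1% of TPM in library 1 and 26.5% in library 2 from 3.37% and 3.92% of the counts. The model has 2 exons and leaves out 8 whole exons of Eftud2-202 and 102 bases at the start of its last exon, 963 bases in all. Its junction is shown because reads across it would tell this form from the full-length one, with the start of the second exon in capitals:
Eftud2-211, junction across chr11:102838794-102844140, minus strand: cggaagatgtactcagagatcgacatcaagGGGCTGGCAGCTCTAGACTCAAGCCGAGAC
Whether reads crossed this junction was not tested, since the files give counts and no alignments. With all counts placed on Eftud2-202, the level of the gene was 127 ± 2.05 TPM in place of 198 ± 4.82, and Eftud2 changed places with Sf3b4 in the order. Under that reckoning Eif4a3 moved to 266 ± 7.86 and Txnl4a to 77.6 ± 5.28, and the other 5 members moved by less than their SD.

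Within their shared span the full-length forms of Eftud2 differ by a single codon at the start of exon 3. It is in capitals in the sequence, shown because it is what separates these proteins there:
Eftud2-201, exon 2 to exon 3, codon at chr11:102871183-102871185, minus strand: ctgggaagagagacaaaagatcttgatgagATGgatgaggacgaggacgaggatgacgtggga
The models with the codon took 16.2% of the TPM of the forms that span it in library 1 and 18.0% in library 2. The assignment was uncertain, with a posterior SD of 16.0% and 14.9% of the count of Eftud2-201. Among the noncoding models of Eftud2, the retained-intron model Eftud2-207 (934 nt), which ends with 53 nt of intron, took 6.47% and 9.56%. Eftud2-205 (567 nt), the decay-typed model that lacks 37 bases of an exon, took 7.07% and 6.25%. For both the posterior SD was between 14.4% and 25.6% of the count.

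**Figure D3:**
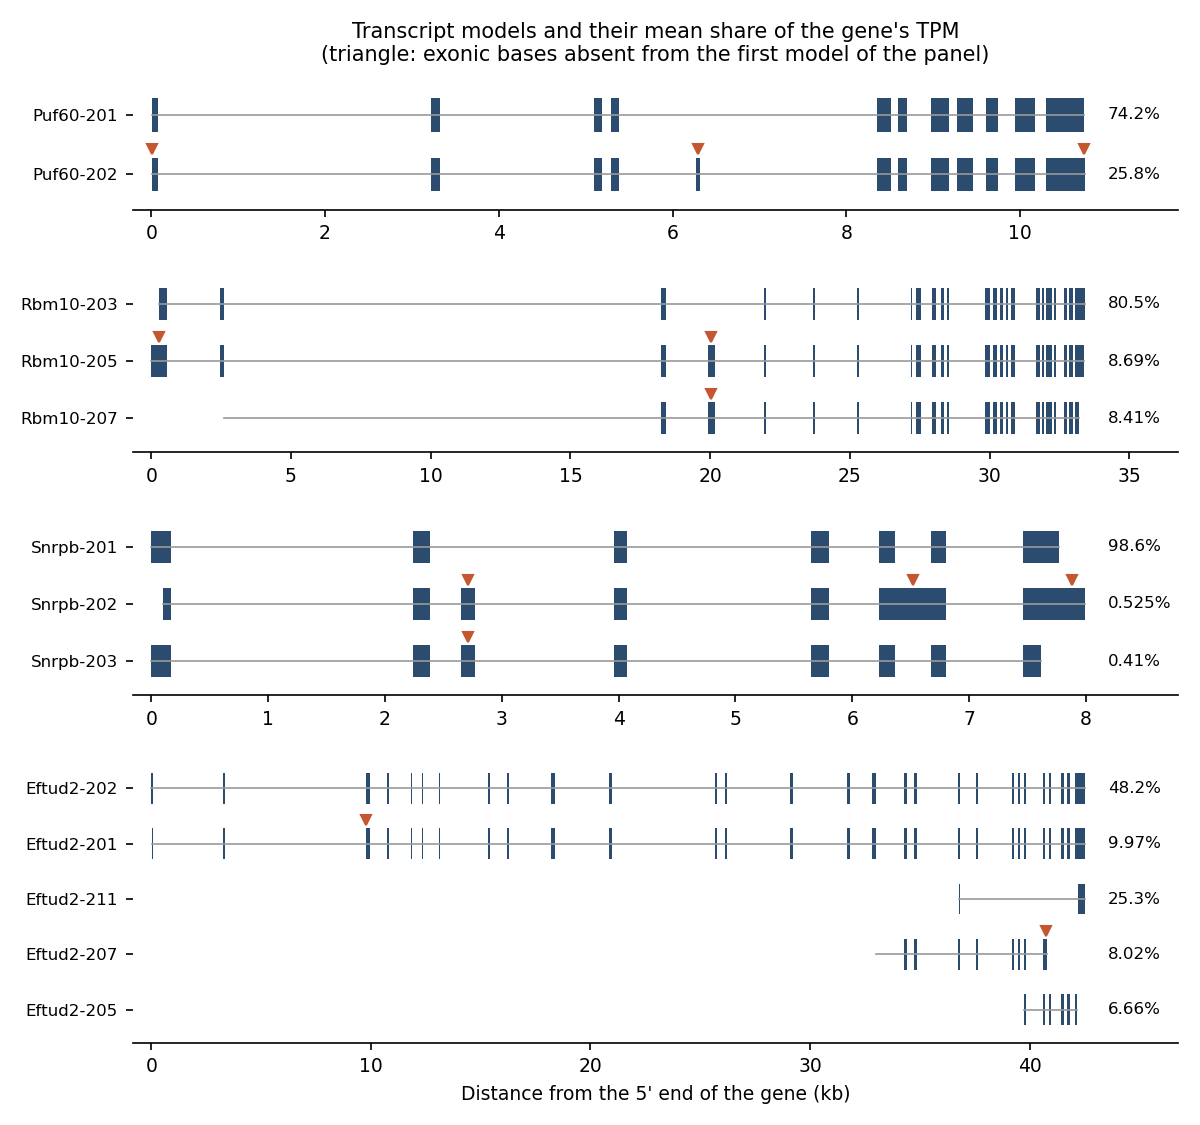
Exons (boxes, to scale) of transcript models of Puf60, Rbm10, Snrpb and Eftud2 along the distance from the 5′ end of the gene in kb, with the mean share of the gene's TPM at the right. Triangles mark exonic bases that the first model of each panel lacks, such as the 51 nt exon of Puf60-202 (25.8%) and the exon of 124 nt in Snrpb-203 (0.410%).

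Txnl4a shared reads with a neighbour. Its coding form Txnl4a-204 took 85.4% of TPM in library 1 and 77.0% in library 2, and the retained-intron model Txnl4a-202 (419 nt) took 12.7% and 20.1%, from 77.0 and 122 counts with posterior SDs of 22.2 and 31.4. The start of Txnl4a overlaps Gm16286, a protein-coding gene on the same strand with 214 ± 2.83 TPM, by 457 exonic bases. The posterior SDs of their counts were the same for both genes, 16.3 reads in library 1 and 18.0 in library 2. How much this overlap contributes to the share of Txnl4a-202 was not tested. The model of Txnl4a-204 in the files is 1756 nt long against 4078 nt in GENCODE M21, so reads from the rest of that transcript are not in its count.

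Eif4a3 encodes the DEAD-box helicase that clamps the exon junction complex onto spliced mRNA. It lies on chromosome 11, 119288363 to 119300089, minus strand, and stood at 314 TPM in library 1 and 295 in library 2. Of 9 genes listed for the complex and its partners, all were detected at a median of 93.7 TPM, and Eif4a3 was the highest. Rnps1 (256 ± 7.71), a splicing activator that joins the complex, followed. With all counts of each gene on its leading transcript their order turned, with Rnps1 at 280.1 ± 7.14 and Eif4a3 at 266 ± 7.86. Magoh (213 ± 10.1) and Rbm8a (93.7 ± 2.81), whose proteins lock Eif4a3 on RNA as a pair, were exceeded 1.44 ± 0.131 and 3.25 ± 0.0458 times. Casc3 (32.5 ± 1.38), the remaining core member, and Sap18 (25.9 ± 5.18), which belongs to the ASAP complex with Rnps1, were lowest. Against the translation factor genes of the same family, Eif4a1, at 738 ± 19.7 TPM, was 2.43 ± 0.171 times as high as Eif4a3, while Eif4a3 exceeded Eif4a2 (209.6 ± 0.707) 1.45 ± 0.0691 times. Counts on the leading transcripts made these ratios 2.73 ± 0.162 and 1.99 ± 0.111.

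The coding form Eif4a3-201 (1509 nt) took 81.2% and 83.3% of the TPM of Eif4a3. Most of the rest went to Eif4a3-203, a processed transcript of 466 nt made of the last exons and 34 nt of intron, with 17.8% in library 1 and 14.6% in library 2. By counts this model held 5.37% and 4.32%, or 421 and 331 reads with posterior SDs of 40.2 and 40.4.

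Puf60 and Rbm10 encode RNA-binding proteins that act where the end of the intron is recognised. Puf60, which works beside the U2AF dimer on the polypyrimidine tract, lies on chromosome 15, 76070182 to 76080924, minus strand. Its level was 320.2 TPM in library 1 and 298 in library 2. Rbm10, which promotes skipping of many exons, lies on the X chromosome, 20617503 to 20650901, plus strand, and stood at 50.4 and 43.8 TPM. Of 9 genes listed for recognition of this site, all were detected, at a median of 139 TPM. Rbm39 (539 ± 39.7), a relative of U2AF2, led, followed by Puf60, while Rbm6 (75.6 ± 2.20) and Rbm10 (47.1 ± 4.71) were lowest. With all counts of each gene on its leading transcript Rbm39 fell to 285 ± 24.6 and Puf60, at 312 ± 15.7, was the highest. Puf60 exceeded U2af2, which encodes the large U2AF subunit, 2.57 ± 0.0399 times. Rbm5, a close relative of Rbm10, was 2.96 ± 0.140 times as high as Rbm10. Counts on the leading transcripts made the ratio of Puf60 to U2af2 2.74 ± 0.0421 and that of Rbm5 to Rbm10 2.73 ± 0.282. The start of the Rbm10 locus shares 117 exonic bases with Ndufb11 on the opposite strand, a respiratory chain gene at 157 ± 0.311 TPM. The posterior SDs were small for both, 1.40 and 1.65 reads for Rbm10 and 0.260 and 0.170 for Ndufb11, though whether counting was by strand is not stated in the labels or the notes with the files.

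Both genes were split between coding forms that differ by a cassette exon. For Puf60 the files hold 2 coding models, against 11 models of all types in GENCODE M21. Puf60-201 lacks exon 5 of Puf60-202, 51 nt or 17 codons. The form with the exon took 27.1% of TPM in library 1 and 24.4% in library 2, a mean of 25.8% ± 1.93. These shares rest on 3228 and 2754 counts, whose posterior SDs were 178 and 177, so the difference between libraries exceeds the doubt of assignment by little. The form without it was the leading one in both libraries.

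In Rbm10 the cassette is exon 4 of Rbm10-205, 231 nt or 77 codons with a GC content of 65.4%. It is shown in capitals because its use divides the forms of the gene:
Rbm10-205, end of exon 3, exon 4 (chrX:20637426-20637656, plus strand) and start of exon 5: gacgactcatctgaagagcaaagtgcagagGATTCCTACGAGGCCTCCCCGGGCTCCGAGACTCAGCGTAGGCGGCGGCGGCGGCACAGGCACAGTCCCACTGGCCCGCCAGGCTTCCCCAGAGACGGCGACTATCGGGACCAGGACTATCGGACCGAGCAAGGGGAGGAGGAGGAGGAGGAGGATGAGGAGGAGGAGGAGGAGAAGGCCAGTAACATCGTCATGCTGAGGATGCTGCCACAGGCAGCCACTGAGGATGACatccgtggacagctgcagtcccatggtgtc
Of the 7 models in the files, 4 hold the exon and together took 18.5% of TPM in library 1 and 15.8% in library 2, 17.1% ± 1.91. They were represented by Rbm10-205 (9.45% and 7.93%) and Rbm10-207 (9.00% and 7.83%), while Rbm10-201 and Rbm10-204 had no count. The posterior SDs were 14.5% and 18.9% of the count for Rbm10-205, and 26.3% and 28.1% for Rbm10-207. The leading form Rbm10-203 (3172 nt), without the exon, took 79.8% and 81.3%.

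A further difference in Rbm10 is a codon at the end of exon 9 of Rbm10-203, which Rbm10-205, Rbm10-206 and Rbm10-207 lack. The codon is in capitals, between its flanks, because it is the other change that separates the proteins:
Rbm10-203, codon at chrX:20645595-20645597, plus strand: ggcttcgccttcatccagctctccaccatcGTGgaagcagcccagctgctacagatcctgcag
Forms with the codon took 79.8% of TPM in library 1 and 81.3% in library 2. No counts were assigned to the models with both exon 4 and the codon, Rbm10-201 and Rbm10-204. For these and Rbm10-202, the 3 models without counts, a count of 0 allows at most 0.133% of TPM each at the limit of 3 counts, which covers counting error only. The posterior means gave them up to 1.13%, so these forms were not resolved from their relatives.

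Over all 8 genes, 20 of the 39 transcripts in the files are noncoding, and 6 genes have at least 1. The noncoding share of TPM was 17.4% ± 3.88 for Txnl4a, 17.2% ± 2.00 for Eif4a3, 16.6% ± 1.53 for Eftud2, 2.34% ± 0.820 for Rbm10, 1.44% ± 0.114 for Snrpb and 0.523% ± 0.252 for Sf3b4. The genes are sorted here by this same share, so the gap between the 3 high and the 3 low ones is no separate result. The share of Rbm10 rests on a single model, Rbm10-206, with 37.7 and 55.0 counts. Its posterior SDs were 48.7 and 40.8, so in library 1 the doubt of assignment exceeded the count. In the 5010 protein-coding genes with a mean of 10 TPM and models of both kinds, the median share was 8.54%, and 61.5% of them had 5% or more, as 3 of the 6 did here. No member reached a share of 50%, which 9.88% of these genes did. The same leading transcript, a coding one, was found in both libraries for each of the 8.

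The noncoding models held a smaller part of the reads than of TPM. The 4 with 5% or more of TPM were 419 to 934 nt long, shorter than their genes' leading forms, while Snrpb-202 (1711 nt) was longer than Snrpb-201. By expected counts the shares were 5.58% ± 0.965 for Eftud2, 5.22% ± 0.673 for Eif4a3, 4.01% ± 1.06 for Txnl4a, 1.58% ± 0.555 for Rbm10, 1.35% ± 0.132 for Snrpb and 0.0976% ± 0.0471 for Sf3b4. All 6 were lower than by TPM, as were 84.1% of the 5010 genes. Between the libraries the noncoding share of Txnl4a moved most, from 14.6% to 20.1%, and was the only one of the 6 to move by 5 points or more, as 20.0% of the 5010 genes did. No share moved by 10 points, as that of 5.79% of genes did.

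**Figure D4:**
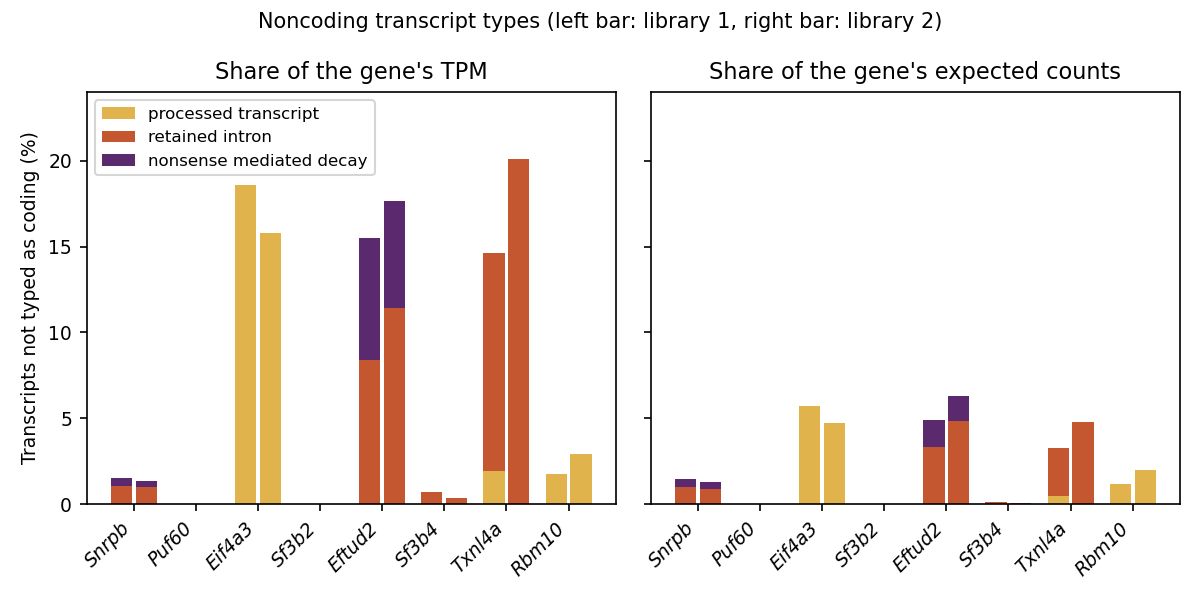
Share in percent of each gene's TPM (left panel) and expected counts (right panel) on transcripts not typed as protein coding, by type, with the left bar for library 1 and the right bar for library 2. Eif4a3, Eftud2 and Txnl4a lay between 14.6% and 20.1% of TPM but at 6.26% or less of counts, and Puf60 and Sf3b2 have no such model in the files.

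The 2 pools gave nearly the same levels. Ratios of library 2 over library 1 used counts scaled by TMM, and the brackets hold the exact 95% Clopper-Pearson interval, which covers counting error only. They ran from 0.877 (0.834 to 0.923) for Rbm10 to 1.03 (1.01 to 1.05) for Sf3b2. No member differed 2-fold, which 1.34% of the 13747 genes with 50 counts and 1 TPM did. Estimated with edgeR's common dispersion over 15986 genes, the variation of a library that counting does not account for was 9.79% (coefficient of variation). A ratio of 2 libraries varies by more than this. Every member's ratio except that of Rbm10 lay closer to 1 than 9.79%. Rbm10 was not tested against the wider spread of a ratio.

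Within these small differences 7 of the 8 ratios lay below 1 and 1 above. Sf3b4 had a ratio of 0.925 (0.893 to 0.958), Txnl4a 0.922 (0.874 to 0.974) and Puf60 0.946 (0.922 to 0.971). Snrpb had a ratio of 0.977 (0.953 to 1.00), Eif4a3 0.974 (0.944 to 1.01) and Eftud2 0.993 (0.963 to 1.02). The interval excluded 1 for 5 members, 4 lower in library 2 and 1 higher. Such intervals excluded 1 for 43.4% of all 13747 genes and for 63.9% of the 2670 genes with at least 5321 counts, the number held by the member with the fewest, so that 5 of 8 is near the background. Of those 2670 genes, 18.6% were lower and 45.4% higher in library 2 by this rule, and 34.8% had a ratio below 1. The median log2 ratio was -0.06 over the members and 0.04 over these genes, whose central 95% ran from 0.885 to 1.19. Rbm10 was just outside that range.

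**Figure D5:**
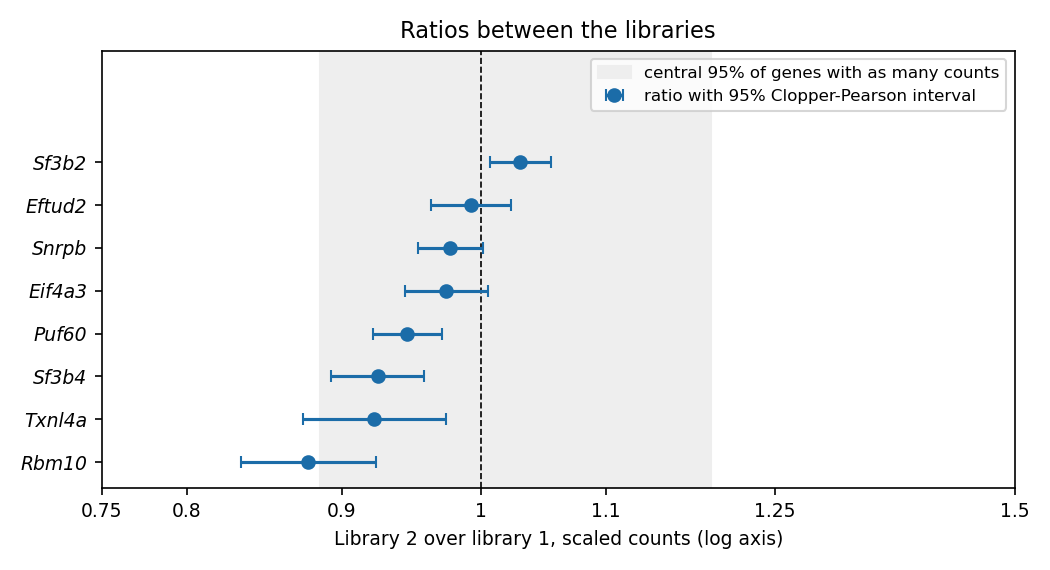
Ratio of library 2 over library 1 (log axis) for the 8 genes, as points with the 95% Clopper-Pearson interval, over a grey band for the central 95% of the 2670 genes with at least as many counts. All but Sf3b2 lay below 1, and Rbm10 at 0.877 lay just outside the band.

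The summed levels of cell type markers differed between the pools as well, and in such bulk samples fewer cells of a type and less RNA per cell cannot be told apart. The summed TPM of 5 listed neuron markers was 571 in library 1 and 475 in library 2, that of 5 endothelial markers 145 and 120.0, that of 5 epithelial markers 192 and 166, and that of 6 red cell markers 13029 and 11954. The summed TPM of 5 skeletal muscle markers was 103 and 168, with Actc1 alone at 43.3 and 87.0. That of the 8 mesenchyme markers was 1073 and 1028, though by intervals 4 of these genes were higher in library 2 and 3 lower. Intervals excluded 1 for 43.4% of all genes, and for 63.9% of those with at least as many counts as the member with the fewest. None of these markers was at 0. Beside the X-linked Rbm10, Xist, which silences an X chromosome in females, had a ratio of 0.816 (0.787 to 0.847), the Y-linked Ddx3y 1.30 (1.21 to 1.40), Kdm5d 1.23 (1.12 to 1.36) and Eif2s3y 1.15 (1.03 to 1.28), while the median over 446 X-linked protein-coding genes was 1.03. The part of these marker and sex-linked differences in the ratios of the 8 genes was not tested.

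By complex, the median log2 ratio was -0.03 for the Sm core, 0.03 for the U2 list, -0.01 for U5 and the tri-snRNP, -0.03 for the exon junction list and 0.02 for recognition of the end of the intron. By intervals that excluded 1, the Sm core had 1 gene lower and 2 higher in library 2, the U2 list 1 lower and 6 higher of 12, and the U5 list 2 lower and 1 higher of 15. The exon junction list had 3 higher and none lower of 9, and the list of Puf60 and Rbm10 had 2 lower and 3 higher of 9. Such intervals were found for 43.4% of all genes and 63.9% of those with as many counts as the members. No gene of these lists differed 2-fold. Among the genes higher in library 2 were Snrpb2, of the U2 snRNP, with a ratio of 1.22 (1.15 to 1.30), Pnn, a partner of Rnps1, with 1.18 (1.14 to 1.23), and Rbm39 with 1.15 (1.12 to 1.17).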

How the data were processed

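Total RNA-seq of 2 libraries of mouse facial prominence was analysed, each quantified by the authors on its own transcriptome alignment on mm10 with the GENCODE M4 models, as the deposited notes state. The software was not given in the sources used here, and the column names are those of RSEM. Expected counts are the reads the authors assigned to each gene or transcript, without normalization. TPM was computed by the authors over all entries of a file, spike-ins included. The percent of a gene's TPM per transcript is also deposited, with posterior means and the posterior SD of counts.

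Gene symbols, transcript types and exon positions were taken from GENCODE M21 (GRCm38, the assembly of mm10), with identifiers matched without version. It named 42462 of 43346 genes, all 112 listed symbols and all 39 transcripts of the members, of which 35 have the same length as in the files. Printed sequences are from its transcript sequences. Noncoding means every type except protein coding. Ratios used counts rounded to whole numbers and TMM (edgeR 4.0.16, R 4.3.3), and DESeq2 1.42.0 size factors as an alternative. The ratio and share steps were tested on simulated data. With 1 group there was no test of a condition, and the SD between pools may include technical spread.

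The members and the lists were chosen with earlier results of these data known. Genes were named by rule as the 8 members, the 2 highest and 2 lowest genes of each list of a complex or pathway (not of cell type markers) and, per member, transcripts with 5% of TPM in either library. Prpf8, Snrnp200, Snrnp40, Magoh, Rbm8a, Pnn, Snrpb2, U2af2, paralogs, the markers Msx1, Alx1 and Actc1, the overlapping genes, minor transcripts and sex-linked genes were named in addition, after their values were seen. Some items the rule names are not reported here.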

Additional observations from a re-analysis of the deposited data

How the results depend on the processing

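Detection of all 8 genes held at 5 TPM and in each library alone. Their median of 212 TPM became 207 with posterior mean TPM, 251 with TPM scaled over annotated genes alone and 196 with all counts on the leading transcript, an alternative chosen after seeing the data. The order of the 8 was the same except under the last, where 6 kept their place. That alternative also moved 3 places at the head of the lists, where Sf3b2, Rnps1 and Puf60 came first in place of Sf3b1, Eif4a3 and Rbm39. The median noncoding share of the 6 genes with noncoding models, 9.45%, was 6.12% with decay-typed models counted as coding, 10.3% with posterior means and 2.80% by expected counts. Counting decay-typed models as coding takes them out of the noncoding share by definition, and the cause of the other moves was not tested. In the libraries taken alone the median noncoding share was 8.20% and 9.35%. The 184 genes past 2-fold became 1475 with a minimum of 10 counts and no TPM minimum, which adds genes of few reads. The median log2 ratio of the members stayed below 0 under all 5 alternatives (-0.09 to -0.05), and 5 or 6 intervals excluded 1 under the 4 alternatives that give an interval. Taken from TPM in place of counts, the ratio was 1.04 for Eftud2, 0.982 for Txnl4a and 0.94 for Eif4a3. A library ratio needs both libraries, so none was computed without one of them. No paired analysis was possible because the labels give 1 group. Precision is limited by the 2 libraries and, for short or overlapping transcripts, by the assignment of reads.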

Other observations

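Genes from lists that hold none of the 8 genes were also detected, though their complexes can share subunits with those above. All 3 listed U1 proteins were detected, with Snrpa at 281 ± 12.7 TPM, Snrpc at 232 ± 5.04 and Snrnp70, which binds U1 RNA, at 42.2 ± 2.28. The minor spliceosome, which removes a rare class of introns, had a lower median of 42.8 TPM over 8 genes. Zcrb1 (128 ± 6.09) and Snrnp25 (70.3 ± 1.71) were highest there, and Pdcd7 (11.6 ± 2.32) and Snrnp35 (10.0 ± 0.629) lowest. In this list 5 of 8 genes had an interval above 1 in the ratio of library 2 over library 1 and none below. The median log2 ratio was 0.16. Of all genes, 43.4% had an interval excluding 1 in either direction. Among the 2670 genes with at least as many counts as the member with the fewest, 45.4% were higher and 18.6% lower. The median log2 ratio of those genes was 0.04. Factors of nonsense-mediated decay were at a median of 14.6 TPM over 10 genes, all detected. Upf3a (39.2 ± 0.389) was highest, and the kinase gene Smg1 (11.97 ± 0.361) and Upf2 (11.0 ± 1.24) were lowest.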
